A study of Mus musculus with 22 samples.

Results

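The genes described here are 35 listed genes of the unfolded protein response and the integrated stress response: chaperones of the endoplasmic reticulum (ER), the machinery of ER-associated degradation, the stress sensors with their transcription factors, and targets of ATF4. They were chosen by name, mapped from Ensembl gene identifiers to mouse symbols, and all 35 were found among the 31116 genes present in both count tables. The tables hold RNA-seq counts of 12 samples of Ly6Chi monocytes and 10 samples of SigF+CD11b- alveolar macrophages sorted from digested mouse lungs. All mice were adults of the C57BL/6 strain carrying SP-CI73T, a mutation of the surfactant protein C gene that alveolar type 2 epithelial cells express. In these mice tamoxifen activates an Flp recombinase that is knocked into the Rosa26 locus, which removes a neomycin cassette and raises the mutant protein. The groups were untreated control mice (4 monocyte and 4 macrophage samples, all carrying the mutant allele), mice 3 d after a single oral dose of tamoxifen (4 monocyte and 3 macrophage samples) and mice 14 d after it (4 and 3). The labels call the controls untreated, while the study describes the controls of the monocyte sequencing as mice of the same mutant line given oil. Its general methods pool 2 kinds of control: mutant mice without the recombinase given tamoxifen, and mice with it given oil. Which kind served as macrophage controls is not stated. The sorted cells are not the cells that make the mutant protein. The labels number the samples of a group without saying whether each is 1 mouse, so p-values measure the spread between these samples.

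Proteins that enter the ER are folded by chaperones, and those that fail are pulled back to the cytosol and degraded. When unfolded proteins accumulate, the sensors IRE1, ATF6 and PERK raise the folding capacity: IRE1 splices the mRNA of Xbp1, ATF6 is cut to release a transcription factor, and PERK phosphorylates eIF2alpha, which lowers protein synthesis and favours translation of ATF4. The kinases of amino acid shortage, viral RNA and heme shortage also end in eIF2alpha and ATF4, which is why that branch is called the integrated stress response. Xbp1 splicing, ATF6 cleavage and eIF2alpha phosphorylation are not measured by counts per gene, so the values below are mRNA levels alone.

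The control regions of these genes carry short shared sequences, which are shown here because members that hold the same element moved apart in the data. Promoters (RefSeq, build GRCm38.p6, from 250 bases before to 50 bases after the start) were given for 31 of the 35 members, those of Atf6, Derl1, Hyou1 and Manf being the exceptions. The ER stress response element, CCAAT and CCACG with 9 bases between them, was found on either strand in 9 of 31 members: Calr, Canx, Creld2, Derl3, Dnajc3, Hsp90b1, Hspa5, Pdia6 and Syvn1. Of all 27025 genes with a promoter, 0.137% held it. Its second form, ATTGG and CCACG with 1 base between them, was found in Dnajb11 and Herpud1 and in 0.0444% of all genes. The C/EBP-ATF element TGATGNAA was found in Asns, Chac1, Herpud1 and Trib3 and in 4.51% of all genes. The core of the XBP1 and ATF6 element, TGACGTGG, was found in 0 of 31 members and in 0.714% of all genes. No 2 matches overlapped within a member. In the upstream 250 bases below, written 5′ to 3′ along the gene's strand, capitals mark the matched letters of either strand and the bases between paired parts are left in lower case.
Hspa5: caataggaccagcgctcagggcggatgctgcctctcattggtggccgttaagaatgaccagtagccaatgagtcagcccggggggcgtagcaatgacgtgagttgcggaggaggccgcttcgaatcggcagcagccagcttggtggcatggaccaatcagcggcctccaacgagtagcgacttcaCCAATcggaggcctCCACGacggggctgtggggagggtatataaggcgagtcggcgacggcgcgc
Pdia6: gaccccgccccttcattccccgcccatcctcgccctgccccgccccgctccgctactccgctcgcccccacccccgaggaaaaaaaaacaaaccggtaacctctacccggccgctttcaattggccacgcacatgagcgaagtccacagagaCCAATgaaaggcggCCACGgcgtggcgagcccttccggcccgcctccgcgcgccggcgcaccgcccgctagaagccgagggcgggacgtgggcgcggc
Dnajc3: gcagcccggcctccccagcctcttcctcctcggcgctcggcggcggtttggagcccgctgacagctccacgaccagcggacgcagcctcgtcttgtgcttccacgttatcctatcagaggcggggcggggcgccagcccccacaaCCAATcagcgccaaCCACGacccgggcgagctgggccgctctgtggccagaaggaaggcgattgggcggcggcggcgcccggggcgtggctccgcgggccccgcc
Calr: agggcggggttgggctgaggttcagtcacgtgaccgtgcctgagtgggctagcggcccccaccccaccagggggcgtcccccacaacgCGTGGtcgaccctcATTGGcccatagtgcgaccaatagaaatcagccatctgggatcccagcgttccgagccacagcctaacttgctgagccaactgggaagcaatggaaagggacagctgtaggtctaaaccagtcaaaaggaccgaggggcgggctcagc
Herpud1: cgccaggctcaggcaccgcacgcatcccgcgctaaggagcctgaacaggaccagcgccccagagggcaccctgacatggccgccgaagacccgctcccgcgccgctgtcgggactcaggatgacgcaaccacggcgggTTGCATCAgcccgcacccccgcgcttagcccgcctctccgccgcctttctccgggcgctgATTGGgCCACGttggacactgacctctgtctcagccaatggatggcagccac
Asns: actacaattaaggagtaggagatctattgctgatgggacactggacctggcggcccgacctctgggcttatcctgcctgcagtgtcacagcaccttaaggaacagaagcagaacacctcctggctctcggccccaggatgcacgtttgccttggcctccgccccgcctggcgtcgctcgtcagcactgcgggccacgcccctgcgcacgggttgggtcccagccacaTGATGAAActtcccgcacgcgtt
These windows lie at chr2:34771840-34772089, plus strand (Hspa5), chr12:17266339-17266588, plus strand (Pdia6), chr14:118937682-118937931, plus strand (Dnajc3), chr8:84846932-84847181, minus strand (Calr), chr8:94386179-94386428, plus strand (Herpud1) and chr6:7693210-7693459, minus strand (Asns). A match is a description of letters and not evidence that a factor binds there.

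Several features of the libraries bear on every value below. A monocyte library held 15451460 to 28789639 counts, and a macrophage library 4610720 to 17074863, the lowest at 14 d (4610720 to 6838893). All 14 d libraries showed the pattern of males (Xist 1 to 32 counts, Ddx3y 223 to 1088) and all control and 3 d libraries that of females (Xist 552 to 4444 counts, Ddx3y 0 to 2), so the effect of 14 d and that of sex cannot be told apart. In monocytes at 3 d and macrophages at 14 d more genes had a count than in controls: 40119 to 41134 in monocytes at 3 d against 24775 to 30865 in controls, and 27699 to 30627 in macrophages at 14 d against 21951 to 27616 in controls. The scaling of the libraries, which assumes that most genes do not change, then decides much of the outcome. With factors of the trimmed mean of M values (TMM) the median change of all genes was 0.22 in monocytes at 3 d and 0.175 in macrophages at 14 d on the log2 scale, and with the same factors taken only from highly expressed genes (mean log2 CPM, counts per 1000000, over 5) it was 0.74 and 0.744. A member was called changed at an adjusted p under 0.05 and a fold change over 1.5, by edgeR's quasi-likelihood test, adjusted by Benjamini-Hochberg across every gene in the fit (edgeR q). Below, "in all fits" means that it was called in the same direction with TMM and in each of 6 alternatives of tool, scaling or filter in which it was tested; fits that left out 1 library are given apart. Counts given below for an alternative, or with libraries left out, are of the members or the wider list alone. The shares of all genes beside them are of the full TMM fit and are no background for those counts. Of all genes tested, 36.6% lay higher and 14.5% lower without overlap in monocytes at 3 d. At 14 d the shares were 5.75% and 7.97%. In macrophages they were 6.85% and 7.16% at 3 d and 40.2% and 30.6% at 14 d. Between 14 d and 3 d they were 15.5% and 35.9% in monocytes and 39% and 26.5% in macrophages. Members were named partly by this trait, so it does not add to their calls.

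Of the markers, the 7 listed genes of Ly6Chi monocytes, Ly6c2 and Ccr2 among them, summed to 6074 to 10990 CPM in monocytes and 28.1 to 266 in macrophages, and the 12 of alveolar macrophages summed to 22990 to 57110 in macrophages. In monocytes those 12 summed to 7600 to 15080 CPM in controls, 4352 to 9314 at 3 d and 15970 to 21810 at 14 d, close to the lowest macrophage library. A sum does not show which of the 12 carry it, and in samples 2 and 3 of 14 d monocytes 1 of them had 0 counts. The monocyte sort excluded alveolar macrophages, eosinophils, Ly6G+ neutrophils and CD3+ lymphocytes. Markers of other cells moved with the groups: plasma cell genes, whose parent cells are rich in ER, summed to 905 to 3494 CPM in control monocytes against 338 to 957 at 3 d and 356 to 520 at 14 d. T and NK cell genes summed to 319 to 1360 CPM in control monocytes against 15.8 to 266 and 18.8 to 40.1. All 6 plasma cell and all 7 T and NK cell genes had counts in every library. The 12 genes raised by tissue dissociation summed to 8973 to 12870 CPM in control monocytes, 3734 to 5466 at 3 d and 4500 to 9535 at 14 d. Genes of monocyte-derived macrophages summed to 3148 to 7972, 984 to 1380 and 3855 to 11570 CPM in the same order, and dendritic cell genes to 227 to 370.1, 29.2 to 185 and 115 to 187. In macrophages, 10 neutrophil genes summed to 14.2 to 24.7 CPM in controls and 371 to 1509 at 14 d, and 6 genes of stroma and endothelium to 22.4 to 32.7 and 149 to 324. Eosinophil genes summed to 0.664 to 1.90 and 28.4 to 107, and Ly6Chi monocyte genes to 28.1 to 50.05 and 140 to 266. For monocyte-derived macrophage genes the sums were 718.5 to 895 and 1058 to 1702, and for dendritic cell genes 4.41 to 13.6 and 19.3 to 37.7. Lower at 14 d were alveolar epithelium genes (224 to 287.5 and 132 to 158) and the dissociation genes (4056 to 5258 and 2770 to 3588). The part of these cells in the results below was not tested. In bulk samples such as these, fewer cells of a type and less RNA per cell cannot be told apart.

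Control cells of both types devoted a small and different share of their mRNA to these genes. The 35 members took 0.550% to 0.699% of all counts in control monocytes and 0.892% to 0.991% in control macrophages. Per kilobase of exon, the highest levels in control macrophages were those of Calr, the lectin-like chaperone calreticulin (628 ± 52.7 CPM per kb, SD, n = 4), Hspa5, the central ER chaperone BiP (300.5 ± 25.4), Hsp90b1, its HSP90-family partner (288 ± 18.3), and Pdia3, a disulfide isomerase (281 ± 25.8). The last 3 did not differ beyond their spread. In control monocytes Hspa5 (257 ± 32.0 CPM per kb), Calr (230.2 ± 17.6), Sec61b, a subunit of the translocation channel (220.5 ± 29.0), and Pdia3 (210.0 ± 66.5) overlapped in the same way. Chac1 and Trib3 were among the 3 lowest members in both cell types, and Chac1 had 0 to 25 counts per monocyte library, under the filter on low counts.

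Control cells of the 2 types differed in single members, in both directions. In control macrophages 7 members were higher and 6 lower than in control monocytes, against 24.5% and 19.7% of all genes tested and 31.2% and 33% of those averaging over 3 on the log2 CPM scale, and the median difference was 0.04 for the members and 0.05 for all genes on the log2 scale. Library size scaling gave 13 higher and 5 lower, and upper quartile scaling 5 and 10. Because each cell type has its own count table, cell type and table cannot be told apart. Higher in macrophages in all fits were Hyou1, an ER chaperone of the HSP110 family (log2 fold change 1.97, SE 0.22, edgeR q = 3e-08), Dnajb9, a co-chaperone that restrains IRE1 (log2 fold change 1.84, SE 0.20, edgeR q = 2.1e-08), Eif2ak3, which encodes PERK (log2 fold change 1.81, SE 0.25, edgeR q = 9.1e-07), Calr (log2 fold change 1.08, SE 0.17, edgeR q = 6.1e-06) and Edem1, a lectin of degradation (log2 fold change 0.98, SE 0.33, edgeR q = 0.018). Lower in all fits were Ppp1r15a, whose product GADD34 directs the dephosphorylation of eIF2alpha (log2 fold change -3.65, SE 0.24, edgeR q = 1.9e-12), Atf6 (log2 fold change -2.13, SE 0.18, edgeR q = 2.7e-10), Sec61b (log2 fold change -1.46, SE 0.16, edgeR q = 2.4e-08), Selenos, a selenoprotein of the degradation complex (log2 fold change -1.18, SE 0.15, edgeR q = 2.8e-07), and Herpud1, a scaffold of that complex (log2 fold change -1.11, SE 0.19, edgeR q = 1.6e-05). The dissociation genes were lower too, at 4056 to 5258 CPM in control macrophages against 8973 to 12870 in control monocytes. Their part in these differences was not tested.

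**Figure D1:**
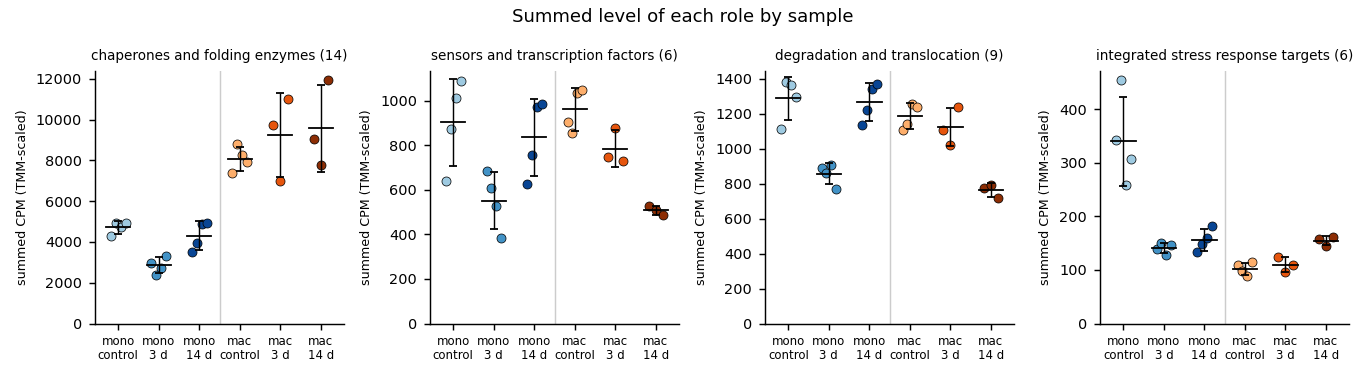
Summed TMM-scaled CPM of the members of each role (vertical axes, from 0) in every sample of the 6 groups; points are samples, lines the mean and bars the SD. Macrophages at 14 d hold the lowest sums of sensors among macrophages (486 to 528 CPM against 855.5 to 1047 in controls), and control monocytes the highest sums of integrated stress response targets of the 6 groups (258 to 454 CPM). Of the latter sums Ppp1r15a alone held 186 to 370.4 CPM. Psat1, Asns, Trib3 and Chac1 had lower means in control monocytes than in control macrophages. Of the sensor sums Xbp1 averaged 598 CPM in control macrophages and 218.5 CPM at 14 d. Each cell type was scaled in its own table.

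In alveolar macrophages 14 d after tamoxifen the response was divided: the chaperone Hspa5 and Psat1 rose, while Dnajb9 and Xbp1 fell, each in all fits. With TMM, 5 of 35 members were higher than in controls and 13 lower, against 39.4% and 22.9% of all 20944 genes tested. Among the 9966 genes averaging over 3 on the log2 CPM scale, 9.97% were higher and 42.3% lower, with a median change of -0.48, close to the members' median of -0.52. The split turned on the scaling: 7 members were higher and 2 lower with library size alone, 9 and 2 with TMM from genes above log2 CPM 5, and 6 and 5 with DESeq2. The median change of all genes was 0.614, 0.744 and 0.346 in these fits, and the shares above are of the TMM fit alone. In all fits 3 were higher (Hspa5, Psat1 and Chac1) and 2 lower (Dnajb9 and Xbp1). As a share of all counts, which amounts to library size scaling, the 35 members took 1.07% to 1.70% at 14 d, above all controls, while their TMM-scaled sum overlapped (9193 to 13280 CPM at 14 d, 9515 to 10880 in controls). Hspa5 alone had a mean of 2884 CPM at 14 d and 1271 in controls. The 14 d and control macrophages also differed in sex and in marker sums, as given above. Sums of neutrophil, eosinophil, monocyte, monocyte-derived macrophage, dendritic cell and stromal genes were higher at 14 d. Those of alveolar epithelium and dissociation genes were lower.

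Among the chaperones, Hspa5 was measured at 1164, 1419, 1262 and 1238 CPM in the 4 control macrophage samples and at 2705, 1959 and 3989 CPM in the 3 samples at 14 d. Every 14 d sample lay above every control (log2 fold change 1.18, SE 0.24, edgeR q = 0.00065, 0.98 to 1.78 over the scalings and filters). Hyou1 took the same course, from 276, 323, 299 and 291 CPM to 408, 338 and 621 CPM (log2 fold change 0.61, SE 0.20, edgeR q = 0.012), and was called in 5 of the 6 alternatives and in 5 of 10 fits that left out 1 library. Dnajb9 went the other way. It stood at 188, 190.1, 233 and 214 CPM in controls and at 57.6, 67.9 and 53.8 CPM at 14 d, with no overlap (log2 fold change -1.79, SE 0.16, edgeR q = 8e-07, -1.99 to -1.22 over the scalings and filters). Dnajc3, which inhibits PERK and assists BiP, was at 164, 172, 185 and 176 CPM in controls and 103, 93.1 and 85.2 CPM at 14 d (log2 fold change -0.89, SE 0.14, edgeR q = 6.3e-05). The disulfide isomerase Pdia6 was at 446, 559, 519 and 504 CPM and then 259.6, 301 and 215 CPM (log2 fold change -0.97, SE 0.16, edgeR q = 0.00011). Neither group of values overlapped, but Dnajc3 kept its call in 2 and Pdia6 in 4 of the 6 alternatives. Dnajb11 (log2 fold change -0.59, SE 0.15, edgeR q = 0.0032) kept it in 1. The other 8 chaperones were not called, and their changes ran from -0.56 (Canx, calnexin) to 0.52 (Hsp90b1) with 0.07 for Calr. Hsp90b1 was at 1121, 1271, 1134 and 1116 CPM in controls and 1598, 1272 and 2138 CPM at 14 d, the lowest of which stood next to the highest control. It missed the fold change threshold with TMM and was called higher in 5 of 6 alternatives (0.33 to 1.12) and in 1 of 10 fits that left out 1 library. Hspa5, Pdia6, Dnajc3 and Calr all hold the ER stress response element printed above, and their changes were 1.18, -0.97, -0.89 and 0.07. In monocytes at 3 d the 9 members with that element did not move apart in this way. All had changes below 0 with TMM, from -1.683 (Derl3) to -0.585 (Dnajc3), where the median of genes averaging over 3 on the log2 CPM scale was -0.47. Derl3, Dnajc3 and Creld2 were not called there.

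Of the sensors and transcription factors, Xbp1, the factor that IRE1 activates, was at 525, 499, 693 and 675 CPM in control macrophages and 228, 263 and 165 CPM at 14 d. All 14 d samples lay below all controls (log2 fold change -1.45, SE 0.19, edgeR q = 1.8e-05, -1.66 to -0.89 over the scalings and filters). Ern1, which encodes IRE1 itself (log2 fold change -0.68, SE 0.15, edgeR q = 0.001), and Eif2ak3 (log2 fold change -0.65, SE 0.20, edgeR q = 0.0081) were lower with TMM and kept the call in 1 alternative each. Atf4 was at 224, 212, 186 and 217 CPM in controls and 183, 140.3 and 222 CPM at 14 d, and Ddit3, which encodes the death-linked factor CHOP, at 15.1, 14.2, 12.7 and 13.7 CPM and 12.7, 7.43 and 14.7 CPM. Both groups overlapped for both genes, neither was called (log2 fold change -0.21, SE 0.15, edgeR q = 0.23 for Atf4 and log2 fold change -0.27, SE 0.24, edgeR q = 0.33 for Ddit3), and both changes had the other sign with library size, upper quartile, TMM from genes above log2 CPM 5 or a filter at log2 CPM 1. Atf6 was not called (log2 fold change -0.31, SE 0.12, edgeR q = 0.029).

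The degradation genes were lower with TMM in 6 of 9 cases, none in all fits. Of all genes tested 22.9% were lower, and of those averaging over 3 on the log2 CPM scale 42.3%. Herpud1 was at 111, 114, 145 and 157 CPM in controls and 62.7, 68.3 and 75.6 CPM at 14 d (log2 fold change -0.94, SE 0.19, edgeR q = 0.00059), and Derl2, a derlin of the degradation complex, at 95.3, 105, 102 and 99.5 CPM and 63.1, 70.5 and 48.0 CPM (log2 fold change -0.73, SE 0.18, edgeR q = 0.0019). Neither overlapped between the groups. They kept the call in 3 and 1 of the 6 alternatives. The other lower ones were Sel1l, Selenos, Sec61b and the sparse Derl3, with changes from -0.98 to -0.66, and Edem1, Syvn1 and Derl1 missed the fold change threshold (-0.53, -0.56 and -0.48).

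Of the 6 targets of the integrated stress response 3 were higher and 0 lower. Of all genes tested 39.4% were higher and 22.9% lower, and of those averaging over 3 on the log2 CPM scale 9.97% and 42.3%. Psat1, an enzyme of serine synthesis, was at 34.4, 28.9, 22.6 and 34.8 CPM in control macrophages and at 82.1, 71.1 and 109.9 CPM at 14 d. The lowest 14 d sample lay above the highest control (log2 fold change 1.54, SE 0.22, edgeR q = 3.9e-05, 1.34 to 2.12 over the scalings and filters). Phgdh and Psph, genes of the same serine pathway in the wider list below, were called lower with TMM. Their log2 fold changes were -1.235 and -0.667, called in 5 and 1 of 5 alternatives of scaling and filter, so serine synthesis genes did not rise together. Asns, which makes asparagine, was at 6.98, 7.83, 2.95 and 5.97 CPM and 9.79, 10.2 and 9.81 CPM (log2 fold change 0.75, SE 0.31, edgeR q = 0.041). It was called in 5 of 6 alternatives but in 2 of 10 fits that left out 1 library, and leaving out any 14 d sample ended the call. Chac1, a glutathione-degrading enzyme, was sparse, with 7 to 12 counts per control library and 7 to 19 at 14 d (log2 fold change 1.52, SE 0.55, edgeR q = 0.022). Its call was kept in 8 of 10 fits that left out 1 library, being lost without the fourth control or the third 14 d sample. Trib3, Sesn2 and Ppp1r15a were not called, with changes of 0.54, -0.59 and -0.02.

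**Figure D2:**
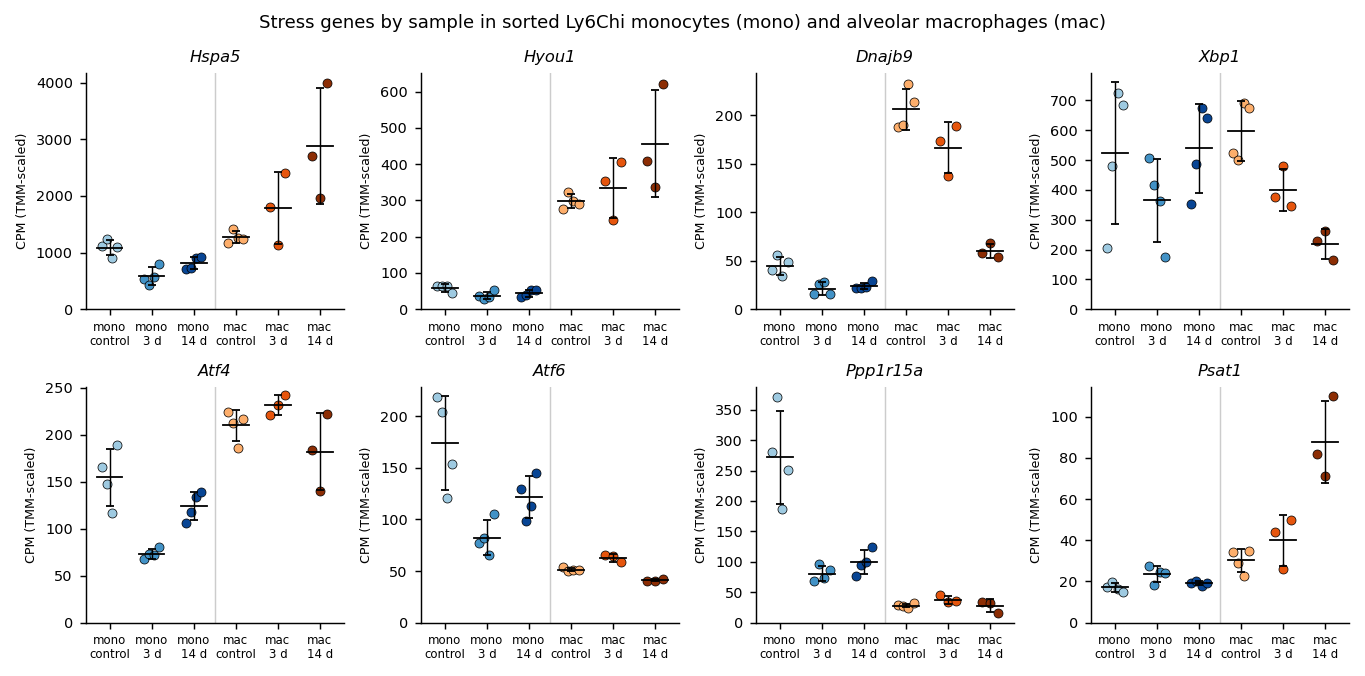
TMM-scaled CPM (vertical axes, from 0) of 8 members in every sample of the 6 groups; points are samples, lines the mean and bars the SD. Hspa5 and Psat1 in macrophages at 14 d lie above all macrophage controls, Dnajb9 and Xbp1 below them, and Ppp1r15a in monocytes at 3 d and 14 d lies below all monocyte controls.

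In macrophages 3 d after tamoxifen no member passed the threshold. The count was 0 of 35 by edgeR, with 4 at an unadjusted p under 0.05 (2 higher and 2 lower) and 0 by DESeq2, and 1.27% of all genes tested were called in either direction. Hspa5 was at 1803, 1143 and 2405 CPM (log2 fold change 0.49, SE 0.24, edgeR q = 0.38), and Xbp1 at 378, 479 and 345 CPM (log2 fold change -0.58, SE 0.18, edgeR q = 0.14). Samples 1 and 3 exceeded every control for Hspa5 while sample 2 lay below them all, and for Xbp1 all 3 lay below every control. Atf4 stood at 221, 231 and 242 CPM and Ddit3 at 15.0, 9.62 and 15.9 CPM, neither called (changes of 0.14 and -0.05). Sample 2 was the lowest of its group for 26 of the 35 members. Without it 6 members were called, with Hspa5, Creld2, Manf and Psat1 higher and Xbp1 and Sesn2 lower. The 1.27% above is of the full fit and not of this refit, so it is no background for these 6. That sample also had the lowest sum of alveolar macrophage markers of its group (26480 CPM against 32150 and 57110), whose part in the result was not tested.

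Between 14 d and 3 d, macrophages had 2 members higher and 13 lower, against 36.3% and 20% of all genes tested and 8.51% and 37.6% of genes averaging over 3 on the log2 CPM scale. In all fits Psat1 was higher (log2 fold change 1.13, SE 0.24, edgeR q = 0.0011) and Dnajb9 lower (log2 fold change -1.48, SE 0.16, edgeR q = 1.8e-05), with 3 d levels of 44.2, 26.1 and 49.8 CPM and 174, 138 and 189 CPM. Hspa5 was also higher (log2 fold change 0.69, SE 0.26, edgeR q = 0.031), in 5 of 6 alternatives and 5 of 10 fits that left out 1 library, although its lowest 14 d sample lay under its highest 3 d sample. Members that were lower without overlap included Dnajc3 (3 d 190.0, 166 and 221 CPM), Pdia6 (552, 415 and 561 CPM), Xbp1, Derl2 (115, 75.9 and 128 CPM), Creld2, a disulfide isomerase (3 d 92.1, 53.8 and 134 CPM and 14 d 44.5, 46.5 and 53.8 CPM), and Selenos (3 d 101, 82.0 and 104 CPM and 14 d 53.0, 63.4 and 37.0 CPM). Their changes ran from -1.03 (Dnajc3) to -0.81 (Derl2). With TMM from genes above log2 CPM 5 the count was 5 higher and 1 lower.

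**Figure D3:**
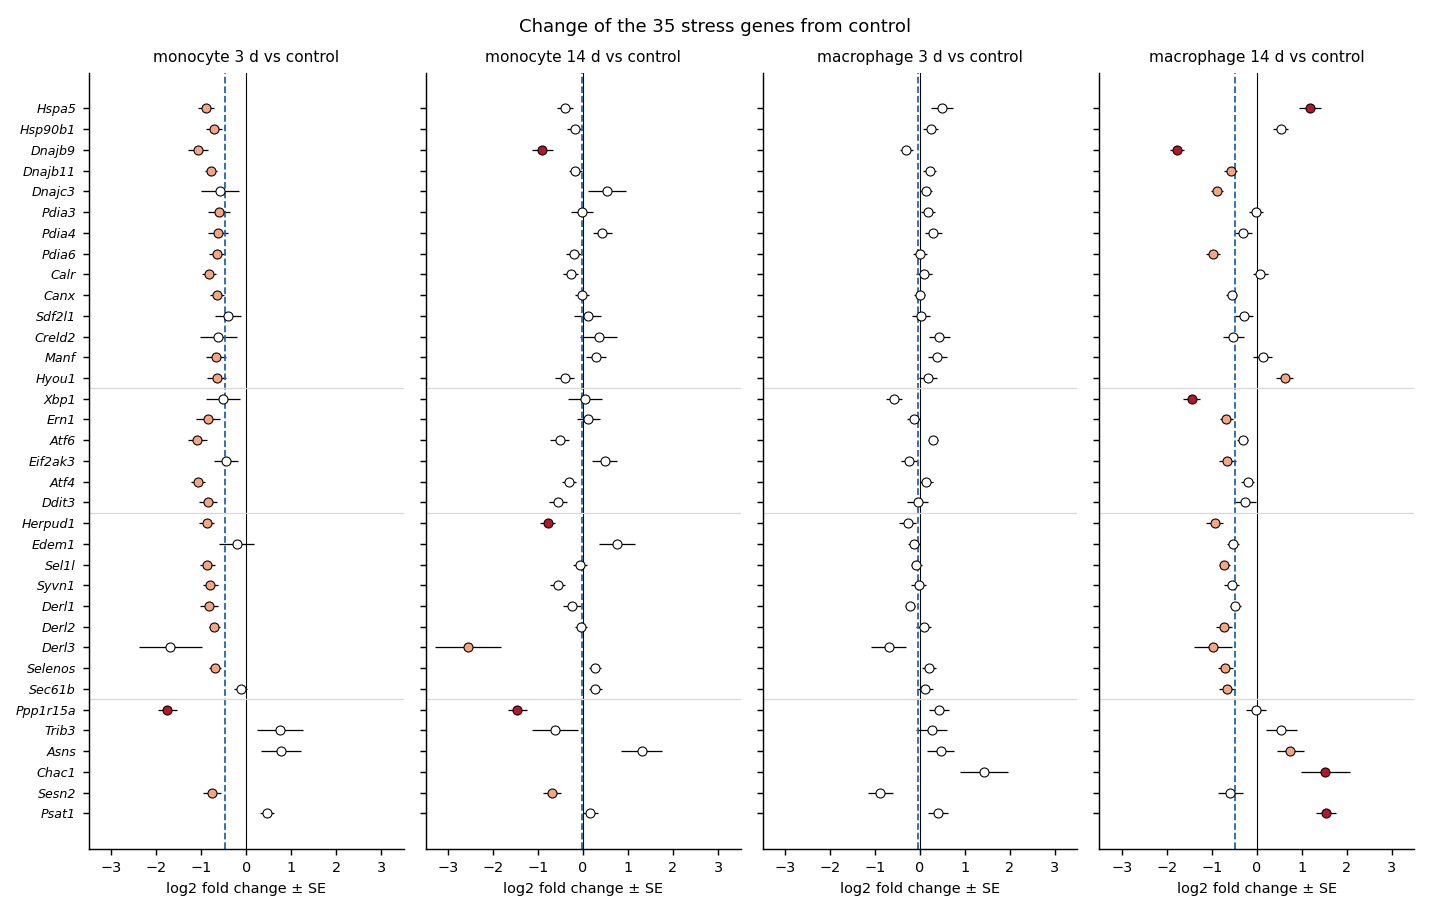
Log2 fold change from control with its SE (horizontal axes) for the 35 members in role order, in monocytes and macrophages at 3 d and 14 d; dark points were called with TMM and in each alternative of scaling or filter in which they were tested, light red points with TMM but not in every alternative, white points were not called, and the dashed line is the median of genes averaging over 3 on the log2 CPM scale. In monocytes at 3 d most members lie near that line at -0.47, and Ppp1r15a lies far below it at -1.75.

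In Ly6Chi monocytes 3 d after tamoxifen, Ppp1r15a fell by 1.75 on the log2 scale, a change called in all fits, and for the other members the scaling decided how many were called lower. With TMM, 0 of 34 members were higher and 23 lower, against 36.8% and 14.4% of all 22353 genes tested. Of the 8298 genes averaging over 3 on the log2 CPM scale, 33.3% were lower and 1.95% higher, and their median change was -0.47 beside -0.70 for the members. Library size scaling left 4 members lower and 2 higher, TMM from genes above log2 CPM 5 left 1 lower and 2 higher, and DESeq2 15 lower and 1 higher. The member lower in all fits was Ppp1r15a. The marker sums given above for plasma cells, T and NK cells, dendritic cells, monocyte-derived macrophages and dissociation were also lower at 3 d. Leaving out both control libraries with the most plasma cell counts, chosen after seeing the data, gave 23 lower and 1 higher, with a median change of all genes of 0.87. The controls kept still had plasma cell sums of 977 and 905 CPM against 338 to 957 at 3 d, so the part of plasma cells was not tested. The members' share of all counts was 0.480% to 0.574% at 3 d, overlapping the controls.

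Ppp1r15a was at 281, 370.4, 186 and 251 CPM in the 4 control monocyte samples, at 68.0, 95.7, 72.9 and 85.9 CPM at 3 d and at 76.9, 94.9, 99.2 and 125 CPM at 14 d. No sample after tamoxifen reached the lowest control (log2 fold change -1.75, SE 0.21, edgeR q = 0.00022 at 3 d, -2.02 to -1.23 over the scalings and filters). Sesn2, a stress-induced brake on the growth kinase mTORC1, was at 41.0, 55.8, 47.9 and 38.9 CPM, 35.5, 30.6, 17.8 and 24.9 CPM and 29.3, 24.5, 31.0 and 29.0 CPM (log2 fold change -0.75, SE 0.20, edgeR q = 0.0071 at 3 d), with no overlap with controls and calls in 2 of 6 alternatives. Psat1 had a change above 0, from 17.4, 19.8, 16.1 and 15.0 CPM to 27.6, 18.3, 24.4 and 23.9 CPM. It missed the fold change threshold with TMM (log2 fold change 0.46, SE 0.16, edgeR q = 0.027) and passed it in 5 of 6 alternatives. Asns and Trib3 had changes of 0.78 and 0.75 and were not called.

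The factors Atf4 and Atf6 were both lower with TMM. Atf4 was at 165, 147, 117 and 189 CPM in control monocytes, 67.7, 73.2, 72.0 and 80.4 CPM at 3 d and 106, 118, 133 and 139 CPM at 14 d (log2 fold change -1.07, SE 0.16, edgeR q = 0.00047 at 3 d), and Atf6 at 219, 204, 121 and 154 CPM, 76.8, 81.8, 65.4 and 105 CPM and 129.7, 98.1, 113 and 145 CPM (log2 fold change -1.08, SE 0.21, edgeR q = 0.0013 at 3 d). At 3 d neither overlapped with controls, and both were called in 5 of 6 alternatives, the exception being TMM from genes above log2 CPM 5 for both. Ddit3 was at 15.3, 11.6, 13.2 and 18.3 CPM, 7.07, 9.52, 8.49 and 7.11 CPM and 9.79, 12.1, 8.67 and 9.39 CPM (log2 fold change -0.86, SE 0.20, edgeR q = 0.0035 at 3 d, called in 2 of 6 alternatives). Xbp1 was at 205, 481, 725 and 684 CPM, 506, 417, 364 and 176 CPM and 353, 488, 674 and 641 CPM. Its 3 groups overlapped and it was not called (log2 fold change -0.52, SE 0.38, edgeR q = 0.26 at 3 d). Ern1 was lower (log2 fold change -0.85, SE 0.26, edgeR q = 0.013) and Eif2ak3 was not called (log2 fold change -0.45, SE 0.27, edgeR q = 0.17).

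Of the chaperones 11 of 14 were lower at 3 d with TMM. Of all genes tested 14.4% were lower, and of those averaging over 3 on the log2 CPM scale 33.3%. Hspa5 was at 1109, 1237, 909 and 1093 CPM in control monocytes, 534, 428, 566 and 801 CPM at 3 d and 706, 735, 912 and 918 CPM at 14 d (log2 fold change -0.90, SE 0.18, edgeR q = 0.0017 at 3 d, called in 2 of 6 alternatives). Dnajb9 was at 40.2, 55.5, 34.4 and 49.0 CPM, 15.2, 25.7, 28.5 and 15.9 CPM and 21.7, 22.4, 22.6 and 29.0 CPM (log2 fold change -1.07, SE 0.23, edgeR q = 0.0023 at 3 d, called in 5 of 6). For both genes the 3 d samples lay below all controls. The other 9 called ranged from -0.83 (Calr) to -0.60 (Pdia3). Of the degradation genes 6 of 9 were lower: Herpud1 was at 217, 284, 201 and 183 CPM, 96.0, 115, 135 and 137 CPM and 130.1, 111, 128 and 144 CPM (log2 fold change -0.88, SE 0.16, edgeR q = 0.0012 at 3 d), and Sel1l, the partner of the ubiquitin ligase HRD1, at 117, 156, 150.3 and 163 CPM, 85.3, 80.1, 83.0 and 75.0 CPM and 108, 122, 152 and 178 CPM (log2 fold change -0.86, SE 0.16, edgeR q = 0.0014 at 3 d). Each was called in 2 of 6 alternatives. Sec61b was not called (-0.12).

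At 14 d few monocyte members differed from controls. With TMM, 0 of 34 were higher and 5 lower (Ppp1r15a, Dnajb9, Herpud1, Sesn2 and the sparse Derl3), against 3.22% and 5.34% of all genes tested and 4.69% and 9.68% of those averaging over 3 on the log2 CPM scale, and the median change was -0.12 for the members and 0.09 for all genes. Ppp1r15a (log2 fold change -1.46, SE 0.21, edgeR q = 0.00046), Dnajb9 (log2 fold change -0.90, SE 0.23, edgeR q = 0.022) and Herpud1 (log2 fold change -0.79, SE 0.16, edgeR q = 0.0065) were lower in all fits, and every 14 d sample of the 3 genes lay below every control. Of 12 fits that left out 1 library, 8 called Dnajb9 and 1 called Sesn2. Sums of the dissociation genes were 4500 to 9535 CPM at 14 d and 8973 to 12870 in controls, and their part was not tested. Without both control libraries with the most plasma cell counts, 2 were lower (Ppp1r15a and Dnajb9) and 1 higher (Asns). The controls kept still had plasma cell sums of 977 and 905 CPM against 356 to 520 at 14 d, so the part of plasma cells was not tested. The defining members Hspa5 (-0.41), Xbp1 (0.04), Atf4 (-0.32) and Ddit3 (-0.55) were not called.

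**Figure D4:**
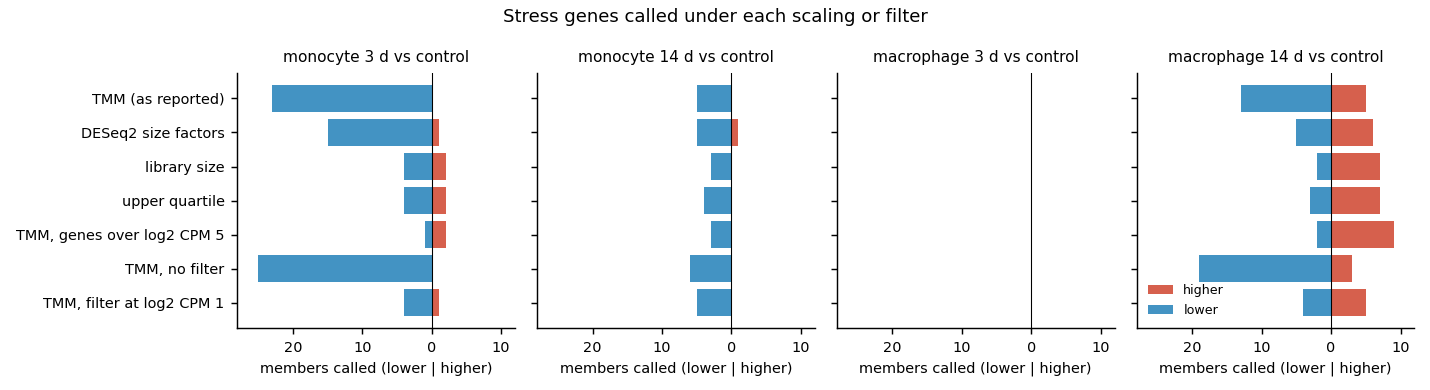
Number of members called lower (left of 0) and higher (right of 0) than control in monocytes and macrophages at 3 d and 14 d, with TMM as reported and under 6 alternatives of tool, scaling or filter. The 23 lower members of monocytes at 3 d became 1 to 25 over the alternatives, and the 13 lower members of macrophages at 14 d became 2 to 19. Bars count members alone, without the share of all genes called in the same fit.

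From 3 d to 14 d in monocytes, 11 members were higher and 1 (Trib3) lower with TMM, against 12% and 34.5% of all genes tested. Among genes averaging over 3 on the log2 CPM scale, 27% were higher and 3.17% lower. The sums of alveolar macrophage and of monocyte-derived macrophage genes given above were also higher at 14 d than at 3 d, without overlap, and their part in the result was not tested. Over the alternatives of scaling and filter 0 to 17 members were higher and 0 to 2 lower, and 0 members were called in all fits. The members with the largest change and no overlap were Pdia4 (3 d 106, 89.7, 142 and 186 CPM and 14 d 208, 260.2, 307 and 313 CPM), Manf, a secreted ER protein (3 d 72.7, 72.1, 119 and 71.3 CPM and 14 d 141, 173, 189.9 and 149 CPM), and Ern1 (3 d 17.6, 17.2, 8.98 and 7.86 CPM and 14 d 19.9, 24.5, 25.9 and 30.4 CPM). Their changes were 1.05, 0.96 and 0.96. Also without overlap were Selenos (3 d 90.9, 72.6, 104 and 91.0 CPM and 14 d 173, 166, 189.6 and 169 CPM), Eif2ak3 (3 d 9.02, 8.13, 8.76 and 6.21 CPM and 14 d 9.46, 14.7, 16.0 and 21.1 CPM) and Derl2 (3 d 53.1, 49.1, 60.5 and 62.0 CPM and 14 d 87.7, 86.4, 95.5 and 84.7 CPM), with changes of 0.96, 0.93 and 0.66, as were Sel1l and Atf4 (0.79 and 0.76).

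Whether the cell types responded differently was tested as the difference of their changes in 1 fit of all 22 samples. The labels do not say whether macrophage and monocyte samples came from the same mice. Such a link was not checked, and the fit treated all samples as independent. At 3 d, 8 members had the higher change in macrophages and 0 the lower, against 3.51% and 15.2% of all 26692 genes tested and 8.26% and 3.21% of genes averaging over 3 on the log2 CPM scale. In all fits these included Ppp1r15a (log2 difference 2.00, SE 0.32, edgeR q = 0.00034), Atf6 (log2 difference 1.19, SE 0.26, edgeR q = 0.004) and Atf4 (log2 difference 1.04, SE 0.23, edgeR q = 0.0051), which were lower in monocytes and not called in macrophages. Hspa5 had a difference of 1.22 and was called in 5 of 6 alternatives. At 14 d, 3 members had the higher and 14 the lower change in macrophages, against 16.9% and 19.9% of all genes and 5.87% and 49.4% of genes averaging over 3 on the log2 CPM scale, and the 14 became 0 with TMM from genes above log2 CPM 5. Higher in all fits were Hspa5 (log2 difference 1.26, SE 0.32, edgeR q = 0.004), Psat1 (log2 difference 1.04, SE 0.29, edgeR q = 0.0078) and Ppp1r15a (log2 difference 1.09, SE 0.32, edgeR q = 0.01). The largest lower differences were those of Xbp1 (-1.84) and Dnajc3 (-1.75), called in 4 and 3 of 6 alternatives. Sex and time cannot be told apart within either cell type at 14 d.

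Monocyte samples of one group varied among themselves, and in some of them members stood at opposite ends of their group. The description of this paragraph was chosen after the values were seen. In monocytes the first control sample had the lowest Xbp1, Dnajc3, Pdia3, Sdf2l1, Creld2, Manf and Derl1 of the 4 controls, with Creld2 at 17.0 CPM against 43.3 to 82.0 in the others, while its Canx was the highest (495 CPM against 365 to 396). The fourth 3 d sample was the lowest of its group for 13 members, among them Xbp1, Dnajc3, Pdia3, Sdf2l1, Creld2, Edem1 and Derl1, and the highest for 14, among them Hspa5 (801 against 428 to 566 CPM), Hsp90b1, Pdia4, Pdia6, Calr, Canx and Hyou1. That library also stood apart in other markers, with neutrophil genes at 57.5 CPM against 454 to 1010 and dendritic cell genes at 185 CPM against 29.2 to 67.6 in the other 3 d samples, whose part was not tested. In other groups the set lay low together, since the first 14 d sample was the lowest of its group for 22 of 35 members and the highest for 0. The median coefficient of variation of a member within a group was 19.7% in control monocytes, 24.9% at 3 d and 16.5% at 14 d, and 9.21%, 22.02% and 16.7% in macrophages.

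The wider pathway, 114 further genes of ER folding, degradation, sensing and the ATF4 programme, was read the same way, naming only genes averaging over 3 on the log2 CPM scale. In macrophages at 14 d, 12 of 113 tested genes were higher and 37 lower, against the 39.4% and 22.9% of all genes and the 9.97% and 42.3% of genes above log2 CPM 3 given above, and with TMM from genes above log2 CPM 5 the counts were 27 and 9. The higher ones of largest change were Creb3l1, an ER-bound transcription factor (log2 fold change 3.01, SE 0.29, edgeR q = 1.6e-06), Ddit4, which restrains mTORC1 (log2 fold change 2.31, SE 0.26, edgeR q = 4.6e-06), and Slc7a11, the cystine transporter (log2 fold change 1.95, SE 0.22, edgeR q = 4.5e-06), and the lower one of largest change was Cebpg, a partner of ATF4 (log2 fold change -2.11, SE 0.18, edgeR q = 6e-07). These 4 were called in each of 5 alternatives of scaling and filter, and the stromal marker sums that were also higher at 14 d are given above. In macrophages at 3 d, 1 of 113 was called, Ddit4, which was higher (log2 fold change 2.15, SE 0.25, edgeR q = 0.00051). In monocytes at 3 d, 7 of 112 were higher and 35 lower (36.8% and 14.4% of all genes, 1.95% and 33.3% of genes averaging over 3 on the log2 CPM scale), with Ddit4 (log2 fold change -1.74, SE 0.46, edgeR q = 0.0071), Bbc3, a gene of cell death (log2 fold change -1.31, SE 0.36, edgeR q = 0.0084), and Atf3 (log2 fold change -1.19, SE 0.28, edgeR q = 0.0038) the lower ones of largest change, called in 5, 2 and 4 of 5 alternatives. With TMM from genes above log2 CPM 5 the counts were 12 and 1. At 14 d, 5 were higher, led by Slc7a11 (log2 fold change 2.13, SE 0.32, edgeR q = 0.00065), and 8 lower (3.22% and 5.34% of all genes). Ddit4 thus had changes of opposite sign in the 2 cell types at 3 d, and the difference was called in each of 5 alternatives (log2 difference 3.71, SE 0.60, edgeR q = 0.00061).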

How the data were processed

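Ly6Chi monocytes (12 samples) and alveolar macrophages (10 samples) were sorted from lungs digested with collagenase D at 37 °C, gated on viable CD45+ cells. mRNA was selected with oligo(dT) and libraries were made with a kit that does not mark strand. Each cell type's table, as deposited, holds the authors' unnormalized counts of reads for each Ensembl gene; the submitters' processing notes name STAR (2.7.2c and 2.7.3a), featureCounts (1.6.3), DESeq2 (1.26.0 and 1.28.1) and GRCm38. The deposited tables list different numbers of genes (55421 for monocytes and 31134 for macrophages). Symbols, positions and exonic lengths came from GENCODE M21. The exons of 11 members overlap those of another gene, and reads there cannot be told apart.

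Groups followed the labels. Genes passing edgeR's filterByExpr were scaled by TMM and tested with edgeR 4.0.16 (R 4.3.3, quasi-likelihood, robust dispersion), adjusted by Benjamini-Hochberg across every gene in the fit: 22353 in monocytes, 20944 in macrophages and 26692 in the joint fit that compared the cell types. All samples of a cell type shared 1 fit. A call needed an adjusted p under 0.05 and a fold change over 1.5. CPM values (counts per 1000000) are TMM-scaled, and levels between genes were compared per kilobase of exon. The members and all lists were chosen with earlier results of these data known. Per comparison, members called without overlap between the groups and with a mean log2 CPM above 3 were named in order of change, at most 8, and Hspa5, Xbp1, Atf4 and Ddit3 always. Wider-pathway genes were named up to 3 per direction, and Phgdh and Psph were added beside Psat1. Other members named in the text are given with their values whether called or not.

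Alternatives were DESeq2 1.42.0, library size, upper quartile, TMM from highly expressed genes (mean log2 CPM over 5), no filter, a filter at a mean log2 CPM of 1, a fit without robust dispersion, only the groups compared, adjusted p alone, a replicate block and each sample left out. Same-numbered samples did not in every pair deviate together (r from -0.17 to 0.521 over the comparisons). For monocyte 14 d and control the same-numbered pairs had r from 0.089 to 0.521, with a mean of 0.28. Other pairs of those groups had r from -0.456 to 0.29, with a mean of -0.093. The lowest same-numbered r, 0.089, lay under the threshold of 0.1, so the numbers were not used as pairs. A link by number in those 2 groups is not excluded. No 2 libraries were duplicates. The tests were checked on simulated counts in which few genes changed, as many up as down. In the data 51.2% of genes were called in monocytes at 3 d and 62.3% in macrophages at 14 d. The check therefore cannot show how the scaling acts there.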

Additional observations from a re-analysis of the deposited data

Results flagged for a closer look

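Dixon's test was run on 100 groups of 4 samples, over the 20 members picked by the naming rule and the summed CPM of each role and of all members. In 3 of them 1 sample lay far from the others, where chance flags about 1 in 20. They were Dnajb9 in monocytes at 14 d (sample 4, 29.02 CPM), Manf in monocytes at 3 d (sample 3, 118.9 CPM) and Ern1 in control monocytes (sample 2, 18.77 CPM).

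The change from control differed between macrophages and monocytes, by the test of the difference in edgeR, for 18 values of those 20 members. At 3 d the macrophage change exceeded the monocyte change by 1.22 for Hspa5, 1.19 for Atf6, 1.04 for Atf4, 0.72 for Selenos and 2.0 for Ppp1r15a on the log2 scale. At 14 d it was higher by 1.26 for Hspa5, 1.09 for Ppp1r15a and 1.04 for Psat1. It was lower at 14 d for Dnajb9 (-1.23), Dnajc3 (-1.75), Pdia4 (-1.07), Pdia6 (-1.12), Xbp1 (-1.84), Ern1 (-1.13), Eif2ak3 (-1.48), Sel1l (-0.99), Derl2 (-1.03) and Selenos (-1.31). Atf6, Atf4 and Ppp1r15a at 3 d, and Hspa5, Ppp1r15a and Psat1 at 14 d, were called under each alternative of scaling and filter. The 10 lower differences at 14 d were not, and with TMM from genes above log2 CPM 5 all 10 lost the call.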

How the results depend on the processing

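With library size the counts were 6 in monocytes at 3 d, 3 at 14 d and 3 between 14 d and 3 d, 9 in macrophages at 14 d and 6 between 14 d and 3 d, and 4 and 8 for the differences between cell types at 3 d and 14 d. Upper quartile scaling gave 6, 2 (monocytes, 14 d and 3 d), 10, 8, 5 and 9 in the same order. TMM from genes above log2 CPM 5 gave 3, 3, 2, 11, 6, 3 and 8, and the filter at log2 CPM 1 gave 5, 4 (monocytes, 14 d and 3 d), 9, 9, 5 and 10. DESeq2 called 11 in macrophages at 14 d. Adjusted p alone gave 19 for monocytes between 14 d and 3 d. Leaving out both control libraries with the most plasma cell counts, chosen after seeing the data, gave 3 in monocytes at 14 d and 22 between 14 d and 3 d. The cause of these shifts was not tested. The counts of this section are of members alone, without the share of all genes called in the same fit. With no filter the median change of all genes was 1.548 in monocytes at 3 d and 1.37 in macrophages at 14 d.

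Leaving out each sample gave 16 to 27 called members in monocytes at 3 d, 2 to 5 at 14 d, 8 to 18 between 14 d and 3 d, 0 to 6 in macrophages at 3 d, 12 to 22 at 14 d, 15 to 22 between 14 d and 3 d, 5 to 12 and 14 to 19 for the differences between cell types at 3 d and 14 d, and 12 to 15 between control cells. In monocytes at 14 d the count fell to 2 without sample 1 or 3 of 14 d, and to 3 without control 2, control 3, sample 1 of 3 d or sample 2 of 14 d. The 3 d difference fell to 5 without macrophage control 1 or macrophage sample 1 of 3 d. With a replicate block the counts were 22, 4 and 11 in monocytes, 0, 14 and 14 in macrophages, 7 and 17 for the differences and 10 between control cells, and the numbers were not shown to pair samples.

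Values not called that changed sign were those of Ddit3 in monocytes between 14 d and 3 d (library size -0.062, upper quartile -0.094, TMM from genes above log2 CPM 5 -0.146, log2 CPM 1 filter -0.011), Xbp1 in monocytes at 14 d (no filter -0.022, without samples -0.224 to 0.242), Ddit3 in macrophages at 3 d (DESeq2 0.002, upper quartile 0.010, TMM above 5 0.033, filter 0.006, without samples -0.153 to 0.187), Atf4 in macrophages at 14 d (0.243 with library size, 0.154 upper quartile, 0.382 TMM above 5, 0.137 filter) and against 3 d (0.091 library size, 0.163 TMM above 5), and Ddit3 in macrophages at 14 d (0.178, 0.087, 0.316 and 0.069 in the order of Atf4) and against 3 d (0.22, 0.076, 0.283 and 0.063). Of 1144 alternative values of named members, 998 kept direction and side of the threshold, 110 lost the call, 9 gained it and 27 changed sign. Depth was lowest in macrophages at 14 d, where the sparse members Chac1 and Derl3 rest on few counts.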
